A study of Mus musculus with 12 samples.

Results

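The mouse genes for 3 ADAMTS proteases, Adamts1 (Entrez 11504), Adamts4 (240913) and Adamts5 (23794), and for 3 tissue inhibitors of metalloproteinases, Timp1 (21857), Timp2 (21858) and Timp3 (21859), were followed across 12 RNA sequencing libraries. They were chosen by name and are 6 of the 21001 genes listed in the tables. All 6 passed the filter on low values, which kept 12314 genes that reached 1 FPKM in 3 or more libraries. FPKM divides a gene's fragments by its transcript length and by the size of the library. It is not corrected for differences in RNA make-up between libraries, for which the tests used TMM scaling. The TMM factors ran from 0.929 (NC replicate 3) to 1.039 (TUMOR replicate 2), so FPKM levels and their ratios compare libraries only roughly.

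Every library came from sorted bone marrow cells (BMSCs, labelled as stem cells of the marrow and called stromal cells here) of C57BL/6 mice that carried green fluorescent protein (GFP), with the genotype entered as wild type, and each group had 3 libraries. TUMOR libraries held GFP cells taken back from the site where they had been inoculated together with Lewis lung carcinoma cells (LLC), a mouse lung tumour line that carried red fluorescent protein. BM libraries held GFP cells from the marrow of mice with the same joint inoculation, and HOMING libraries held GFP cells from the marrow of mice given GFP stromal cells alone under the skin. NC libraries held the GFP cells in primary culture. The ages of the mice, the sort gate and the purity are not given in the sources used here, nor is it said whether replicates were separate animals or cultures. The p-values therefore measure the spread between these libraries, which may be technical.

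ADAMTS proteases are secreted zinc enzymes with thrombospondin repeats that bind them to the matrix outside the cell. ADAMTS1, ADAMTS4 and ADAMTS5 cut the large proteoglycans aggrecan and versican. TIMPs are small secreted proteins that block the active site of matrix metalloproteinases: TIMP1 and TIMP2 act mainly on that family, while TIMP3 stays bound to the matrix and also blocks ADAMTS4, ADAMTS5 and the sheddase ADAM17. TIMP2 in addition bridges MMP14 and the precursor of MMP2 at the cell surface, a step in the activation of MMP2. Marrow stromal cells make both kinds of protein while they remodel the matrix around blood-forming cells.

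RefSeq promoter sequences (build GRCm38.p6, 250 bases before to 50 bases after the gene start) matched 4 of the 6 genes. Those of Adamts1, Timp1 and Timp3 are shown because the results turn on these genes: Adamts1 was highest in BM, Timp1 lowest in TUMOR and Timp3 lower in all 3 groups of recovered cells than in culture. Each is written 5′ to 3′ on the strand of its gene, and capitals mark matches on either strand to TATAAA (the TATA box), GGGCGG (the GC box), TGANTCA (the AP-1 site), TGAGTAA (a variant AP-1 site known from the Timp1 gene) or TGATGNAA (the composite site of C/EBP and ATF factors). Adamts1 lies on the minus strand at chr16:85803064-85803363, Timp1 on the plus strand at chrX:20869916-20870215 and Timp3 on the plus strand at chr10:86300162-86300461.
Adamts1: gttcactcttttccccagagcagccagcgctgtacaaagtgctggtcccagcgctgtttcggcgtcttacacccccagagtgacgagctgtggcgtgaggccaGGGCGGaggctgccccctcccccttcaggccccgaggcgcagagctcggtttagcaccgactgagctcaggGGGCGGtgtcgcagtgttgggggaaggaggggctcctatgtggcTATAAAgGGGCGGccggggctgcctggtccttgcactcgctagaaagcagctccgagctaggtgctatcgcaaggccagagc
Timp1: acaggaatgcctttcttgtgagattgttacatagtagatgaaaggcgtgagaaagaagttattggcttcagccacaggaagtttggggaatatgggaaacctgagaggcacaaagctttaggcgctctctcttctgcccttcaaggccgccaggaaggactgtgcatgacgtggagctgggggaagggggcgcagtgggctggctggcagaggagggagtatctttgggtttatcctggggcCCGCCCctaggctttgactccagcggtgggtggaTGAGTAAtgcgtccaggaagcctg
Timp3: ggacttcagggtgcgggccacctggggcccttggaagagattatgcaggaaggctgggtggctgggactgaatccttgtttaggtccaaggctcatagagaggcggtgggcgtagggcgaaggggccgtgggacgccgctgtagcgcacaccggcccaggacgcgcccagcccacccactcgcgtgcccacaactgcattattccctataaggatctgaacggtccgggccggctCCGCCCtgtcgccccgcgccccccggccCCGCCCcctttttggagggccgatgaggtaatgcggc
The TATAAA of Adamts1 begins 32 bases before the gene start, and these letters were in 14.2% of the 27025 RefSeq promoters of this length. GC boxes were matched 3 times in Adamts1, 2 times in Timp3 and 1 time each in Timp1 and Timp2, and 35.9% of all promoters held at least 1. The TGAGTAA of Timp1 begins at base 27 after the start, and 2.7% of promoters held these letters. TGANTCA, held by 7.93% of promoters, and TGATGNAA, held by 4.06%, had no match in the 4 windows. No match overlapped another. These are matches of letters and were not linked to any measured binding.

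Libraries held 43232145 to 46166519 expected counts, and the 6 genes had from 101 counts (Adamts4, lowest library) to 59873 counts (Timp2, highest library). Of the 8 stromal markers, 5 to 6 reached at least 1 FPKM in every library of a group, with summed levels of 410 to 531 FPKM in TUMOR, 437 to 466 in BM, 372 to 411 in HOMING and 598 to 658 in NC. Thy1 and Nt5e, used to define cultured stromal cells, stayed at 0.01 to 0.79 FPKM in all 12 libraries. Blood cell RNA was highest in HOMING and was also present in BM. The 4 pan-leukocyte markers summed to 0.13 to 0.66 FPKM in TUMOR, 7.01 to 7.95 in BM, 121.4 to 193.1 in HOMING and 0.09 to 0.12 in NC. The 7 red cell markers summed to 1.17 to 2.15 FPKM in TUMOR, 3.0 to 3.53 in BM, 2107 to 3470 in HOMING and 0.31 to 0.89 in NC. The 8 neutrophil markers summed to 0.72 to 2.29, 48.98 to 57.18, 1698 to 2483 and 1.12 to 2.53 FPKM in the same order, and the 8 macrophage markers to 13.65 to 14.54, 19.02 to 19.89, 143.6 to 242.1 and 5.54 to 7.32 FPKM. Most of the macrophage sum in TUMOR was Cd68, at 12.4 ± 0.115 FPKM. The 5 megakaryocyte and platelet markers summed to 3.6 to 4.5 FPKM in TUMOR, 6.02 to 7.38 in BM, 29.76 to 41.38 in HOMING and 2.54 to 2.84 in NC. HOMING replicate 3 was the highest on the red cell, neutrophil and macrophage lists. The 5 epithelial markers summed to 69.5 to 115 FPKM in TUMOR, 6.31 to 6.93 in BM, 5.9 to 6.44 in HOMING and 1.92 to 4.23 in NC. Krt8 was at 93.8 FPKM in TUMOR replicate 1 and at 48.1 and 51.9 FPKM in the other two. Krt19 was at 21.6 ± 0.728 FPKM in TUMOR, 0.37 ± 0.052 in BM, 4.61 ± 0.505 in HOMING and 2.72 ± 1.26 in NC. Krt18 and Cdh1 were at 0.12 FPKM or less and Epcam at 0.07 FPKM or less in all libraries. The part of these cells in the results below was not tested. Replicates differed in how close they were. The mean chi-square per gene between replicate pairs ranged from 3.09 (TUMOR 2 and 3) to 32 (TUMOR 1 and 2) in TUMOR, from 3.68 (BM 1 and 2) to 8.03 (BM 2 and 3) in BM, from 4.06 (HOMING 1 and 2) to 17.6 (HOMING 2 and 3) in HOMING and from 11.7 (NC 1 and 2) to 49.9 (NC 1 and 3) in NC. TUMOR replicate 1, HOMING replicate 3 and NC replicate 3 stood apart from the other two libraries of their groups. Each mean lay above the value of about 1 that sampling noise alone gives, and all 12 libraries were kept.

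Adamts1 was highest in stromal cells from the marrow of tumour-bearing mice. Its levels were 10.43, 9.71 and 9.84 FPKM in TUMOR, 34.77, 34.86 and 32.41 FPKM in BM, 7.46, 7.29 and 7.50 FPKM in HOMING and 10.28, 10.69 and 16.15 FPKM in NC. All BM libraries lay above every library of the other groups, HOMING lay below all others, and TUMOR overlapped NC, in which replicate 3 stood above the other two. Adamts1, which encodes a versican-cutting protease that also restrains vessel growth, rose 2.59-fold in BM over NC (log2 1.37 ± 0.14 SE, edgeR adjusted p 2.9e-06). The log2 difference was 2.23 ± 0.14 for BM over HOMING and -1.81 ± 0.14 for TUMOR over BM (edgeR adjusted p 6.06e-08 and 2.27e-07). In HOMING over NC the log2 difference was -0.85 ± 0.14 (edgeR adjusted p 0.000131) and did not reach the 2-fold minimum for a call, which is applied beside an adjusted p under 0.05 throughout. In bulk libraries fewer cells of a type and less RNA per cell cannot be told apart.

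Adamts4, the aggrecan-cutting protease with the lowest level of the 6 genes, was low in culture and higher in each group of recovered cells. It had 2.83, 2.30 and 2.03 FPKM in TUMOR, 3.33, 3.65 and 3.29 FPKM in BM, 1.49, 1.41 and 1.66 FPKM in HOMING and 1.13, 0.65 and 0.61 FPKM in NC. The 4 groups did not overlap, and their order was BM, TUMOR, HOMING and NC. It rose 4.09-fold in BM over NC (log2 2.03 ± 0.20) and 2.76-fold in TUMOR over NC (log2 1.47 ± 0.20), with edgeR adjusted p of 2.21e-06 and 2.12e-05. In HOMING over NC the log2 difference was 0.83 ± 0.20 (edgeR adjusted p 0.00253), under the 2-fold minimum, and without NC replicate 1 it was 1.153 and was called. Between neighbours in this order, TUMOR against BM gave a log2 difference of -0.56 ± 0.18 and TUMOR against HOMING 0.64 ± 0.19 (edgeR adjusted p 0.0152 and 0.0123), both under the minimum. On the log2(FPKM + 1) scale in limma, the rises of Adamts4 in TUMOR over NC (0.92) and in BM over HOMING (0.81) also lay under it.

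Adamts5, the other main aggrecan-cutting protease, had 2.06, 3.48 and 3.10 FPKM in TUMOR, 6.07, 5.94 and 6.09 FPKM in BM, 3.51, 3.12 and 3.43 FPKM in HOMING and 3.75, 3.59 and 3.21 FPKM in NC. BM lay above all other libraries, and the other 3 groups overlapped. In TUMOR over BM it fell by 1.11 on the log2 scale (SE 0.13, edgeR adjusted p 1.05e-05), and without TUMOR replicate 1, the lowest library and the one with the highest Krt8, the difference was -0.92 and not called. The rise in BM did not reach the 2-fold minimum over NC (log2 0.70 ± 0.13, edgeR adjusted p 0.000489) or over HOMING (log2 0.88 ± 0.13, edgeR adjusted p 0.000109). HOMING over NC gave -0.18 with a 95% interval of -0.47 to 0.11, and TUMOR over HOMING gave -0.23 with an interval of -0.53 to 0.06. Adamts1 and Adamts5 are neighbouring protein-coding genes on chromosome 16 in the RefSeq gene table, and both were highest in BM.

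**Figure D1:**
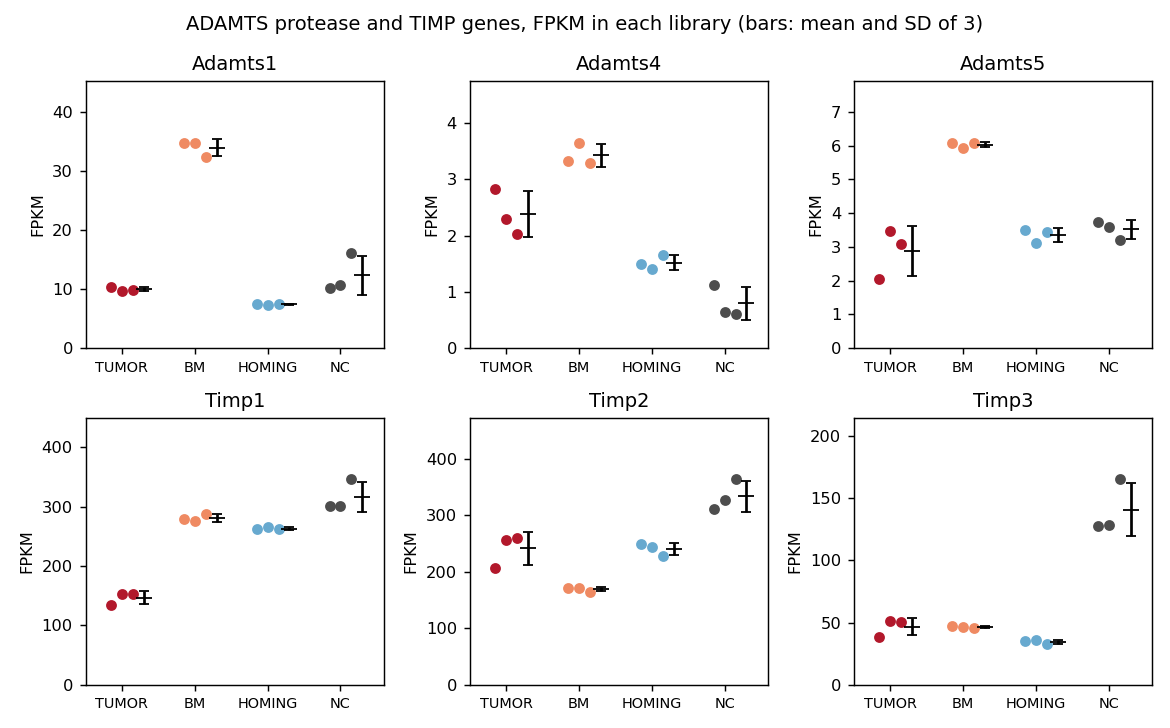
FPKM of the 6 genes (vertical axes, each from 0) in the libraries of TUMOR, BM, HOMING and NC; points are libraries and black bars the mean and SD of 3. BM libraries of Adamts1 sit at 32.41 to 34.86 FPKM, above the other groups, and NC libraries of Timp3 sit at 127.6 to 164.87 FPKM, above all recovered cells.

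Against NC, Timp3 showed the largest fall among the 6 genes in each of the 3 groups of recovered cells. This gene, whose product is the matrix-bound inhibitor of ADAMTS4, ADAMTS5 and ADAM17, had 38.67, 50.87 and 50.23 FPKM in TUMOR, 46.97, 46.06 and 45.82 FPKM in BM, 34.88, 36.19 and 32.74 FPKM in HOMING and 127.60, 128.54 and 164.87 FPKM in NC. Every NC library was above every recovered library, and TUMOR overlapped BM. Timp3 fell by 1.72 ± 0.11 in TUMOR over NC, by 1.68 ± 0.11 in BM over NC and by 2.13 ± 0.12 in HOMING over NC on the log2 scale (edgeR adjusted p 3.52e-08, 1.22e-07 and 5.83e-09). These 3 comparisons share the NC libraries. TUMOR over BM gave -0.03 with a 95% interval of -0.28 to 0.21.

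Of the stromal markers, Col1a1 and Col1a2 were also lower in recovered cells. Their sum was 423 ± 64.1 FPKM in TUMOR, 387 ± 14.9 in BM and 338 ± 19.5 in HOMING. In NC it was 556 ± 24.7 (SD, n = 3). Cxcl12 means were lower in each recovered group too. Eng was higher in each, at 13.9 FPKM in TUMOR, 4.75 in BM and 2.34 in HOMING against 0.943 in NC. Vcam1 was higher than in NC in BM and HOMING and lower in TUMOR. Pdgfrb was lower in TUMOR and HOMING and overlapped NC in BM. Mean Col3a1 was higher in TUMOR (48.0 FPKM) and BM (40.4) than in NC (35.7), and lower in HOMING (18.5). The genes were set against the sum of Col1a1 and Col1a2, a measure chosen after the values were seen. Ratios to the other stromal markers were not tested, so the results below hold for this sum alone. Timp3 stood at 11.0 ± 0.0781% in TUMOR and 11.97 ± 0.372% in BM. In HOMING it stood at 10.3 ± 0.49% and in NC at 25.2 ± 2.79%. On this measure too, every recovered library lay below every NC library for Timp3. The other TIMP genes did not follow. Timp1 stood at 34.9 ± 2.96% in TUMOR and 72.6 ± 4.47% in BM. In HOMING it stood at 78.0 ± 4.51% and in NC at 56.8 ± 2.55%. BM and HOMING were thus above NC relative to the sum of Col1a1 and Col1a2, although below it in FPKM. Timp2 stood at 57.2 ± 2.14% in TUMOR, 43.9 ± 0.713% in BM, 71.3 ± 1.55% in HOMING and 60.1 ± 3.43% in NC, with HOMING above NC, TUMOR overlapping NC and BM below it. Adamts1 stood at 2.41 ± 0.498% in TUMOR, 8.79 ± 0.0536% in BM, 2.20 ± 0.139% in HOMING and 2.21 ± 0.493% in NC of the same sum, so the HOMING and NC values of Adamts1 overlapped on this measure. Adamts4 stood at 0.583 ± 0.197% in TUMOR, 0.885 ± 0.0443% in BM, 0.452 ± 0.06% in HOMING and 0.144 ± 0.0531% in NC. Adamts5 stood at 0.673 ± 0.0791% in TUMOR, 1.56 ± 0.0746% in BM, 0.995 ± 0.077% in HOMING and 0.635 ± 0.0716% in NC. HOMING thus lay above NC for Adamts5 on this measure, although they overlapped in FPKM.

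Timp1, the secreted inhibitor that also binds the cell-surface protein CD63, was lowest at the tumour site. It had 133.84, 153.14 and 152.37 FPKM in TUMOR, 278.84, 275.38 and 287.79 FPKM in BM, 261.51, 265.20 and 261.38 FPKM in HOMING and 300.73, 301.69 and 345.75 FPKM in NC. TUMOR lay below all other libraries. Timp1 fell 2.36-fold in TUMOR over NC (log2 -1.24 ± 0.07, edgeR adjusted p 5.57e-09). TUMOR over BM was just under the minimum at log2 -0.98 ± 0.07 and TUMOR over HOMING was -0.86 ± 0.07 (edgeR adjusted p 6.52e-08 and 2.99e-07). Without TUMOR replicate 2 or 3 the difference from BM was called at -1.01 in both cases. BM over HOMING gave 0.12 with a 95% interval of -0.02 to 0.27. The 3 transcripts listed for Timp1 kept their shares of its counts within 43.41 to 47.96%, 47.99 to 53.11% and 3.05 to 4.54% over the 12 libraries, and the other 5 genes had 1 transcript each.

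Timp2, which takes part in MMP2 activation, was lowest in BM. It had 207.69, 256.92 and 259.88 FPKM in TUMOR, 171.87, 171.95 and 165.17 FPKM in BM, 248.58, 244.65 and 228.17 FPKM in HOMING and 310.82, 327.42 and 363.93 FPKM in NC. BM lay below and NC above all other libraries, and TUMOR overlapped HOMING. Timp2 fell 2.08-fold in BM over NC (log2 -1.06 ± 0.08, edgeR adjusted p 3.72e-07). The call was close to the 2-fold minimum: the log2 difference was -0.98 without NC replicate 3 and -0.98 with scaling by library size alone, neither called. In TUMOR over NC and HOMING over NC the difference was -0.59 in each (SE 0.08), and TUMOR over HOMING gave -0.01 with a 95% interval of -0.19 to 0.17.

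In BM over NC 2 of the 6 genes (Adamts1 and Adamts4) rose and 2 (Timp2 and Timp3) fell, while 11.5% of all tested genes were called in that comparison, 7.93% higher and 3.57% lower. In TUMOR over NC 1 gene (Adamts4) rose and 2 (Timp1 and Timp3) fell, beside 16.4% of all genes called, 9.75% higher and 6.65% lower. Scaling by library size alone changed that split over all genes to 1464 higher and 638 lower, against 1200 higher and 819 lower with the TMM scaling used here. In HOMING over NC 0 rose and 1 (Timp3) fell, beside 14.3% of all genes, 9.64% higher and 4.69% lower. In BM over HOMING 2 (Adamts1 and Adamts4) rose and 0 fell, beside 10.4% of all genes, 3.71% higher and 6.68% lower. In TUMOR over BM 0 rose and 2 (Adamts1 and Adamts5) fell, beside 14.2% of all genes, 6.95% higher and 7.28% lower. In TUMOR over HOMING 0 of the 6 were called by edgeR, DESeq2 or limma, beside 10.8% of all genes in edgeR, 4.42% higher and 6.37% lower. There 4 of the 6 had an unadjusted p under 0.05, and the same number an adjusted p under 0.05. By adjusted p alone, 6 of the 6 passed in TUMOR over NC beside 73.6% of all genes, 6 in BM over NC beside 66.6%, 5 in HOMING over NC beside 70%, 4 in TUMOR over HOMING beside 55%, 5 in BM over HOMING beside 58.1% and 5 in TUMOR over BM beside 69.6%. The genes were chosen with results of these data known, and the comparisons share libraries. The median log2 change of all tested genes was between -0.0047 and 0.0157 over the 6 comparisons. The median log2 change over the 3 ADAMTS genes was -0.41 in TUMOR over NC, 1.37 in BM over NC, -0.18 in HOMING over NC, 0.42 in TUMOR over HOMING, 1.2004 in BM over HOMING and -1.11 in TUMOR over BM. Over the 3 TIMP genes it was -1.24, -1.06, -0.59, -0.01, 0.12 and -0.03 in the same order of comparisons. In BM over NC the medians of the protease and inhibitor genes thus had opposite signs. They also did in TUMOR over HOMING, where the TIMP median was only -0.01. Both were positive in BM over HOMING. In TUMOR over NC, HOMING over NC and TUMOR over BM both were negative, the last with a TIMP median of only -0.03.

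**Figure D2:**
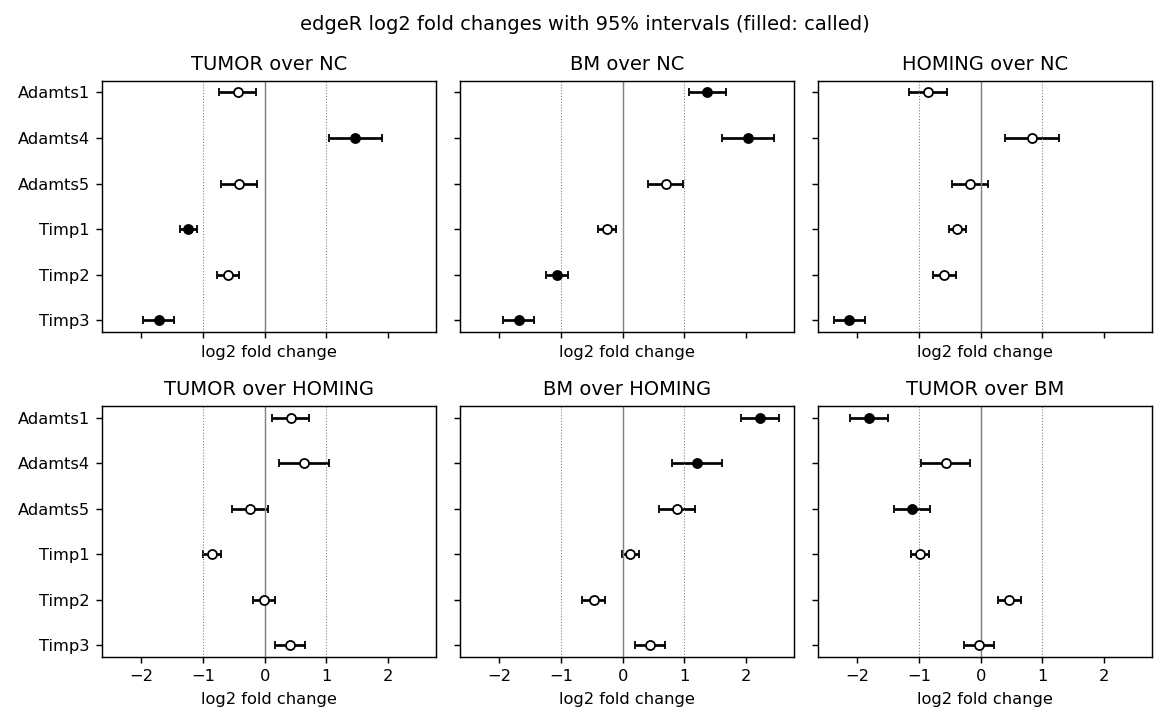
Log2 fold changes of the 6 genes (horizontal axes) in the 6 comparisons, with 95% intervals from edgeR; filled points were called, and dotted lines mark a 2-fold change. Timp3 lies left of the line at -1 in the 3 comparisons with NC, and Adamts1 reaches 2.23 in BM over HOMING.

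The balance of protease to inhibitor transcripts differed between the groups. The summed FPKM of Adamts1, Adamts4 and Adamts5 was 14.97 to 15.49 in TUMOR, 41.79 to 44.45 in BM, 11.82 to 12.59 in HOMING and 14.93 to 19.97 in NC. Divided by the FPKM of Timp3, this gave 0.333 ± 0.0549 in TUMOR, 0.939 ± 0.0265 in BM, 0.356 ± 0.029 in HOMING and 0.119 ± 0.00245 in NC (SD, n = 3). BM stood highest, NC lowest, and TUMOR overlapped HOMING. These transcript ratios are descriptions without a test and do not measure protein or activity. Relative to all 3 TIMP genes together the ADAMTS sum was 0.0354 ± 0.00426 in TUMOR, 0.0875 ± 0.00332 in BM, 0.0229 ± 0.00123 in HOMING and 0.021 ± 0.00162 in NC, with HOMING and NC overlapping. Adamts1 made up 65.5 ± 2.7% of the ADAMTS sum in TUMOR, 78.2 ± 0.609% in BM, 60.4 ± 1.14% in HOMING and 73.4 ± 6.72% in NC.

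The make-up of the TIMP transcripts also shifted. Timp2 was the most abundant in TUMOR at 55.5 ± 0.803% of the summed TIMP FPKM, against 34.2 ± 0.926% in BM, 44.7 ± 0.964% in HOMING and 42.3 ± 0.832% in NC. Timp1 led in BM at 56.5 ± 1.03% and in HOMING at 48.9 ± 1.06%, with 33.8 ± 1.23% in TUMOR and 40.0 ± 0.604% in NC. Timp3 took 10.7 ± 0.459% in TUMOR, 9.32 ± 0.127% in BM, 6.43 ± 0.182% in HOMING and 17.7 ± 1.01% in NC. The sum itself was 434 ± 47.1 FPKM in TUMOR, 497 ± 2.85 in BM, 538 ± 13.4 in HOMING and 790 ± 73.4 in NC.

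**Figure D3:**
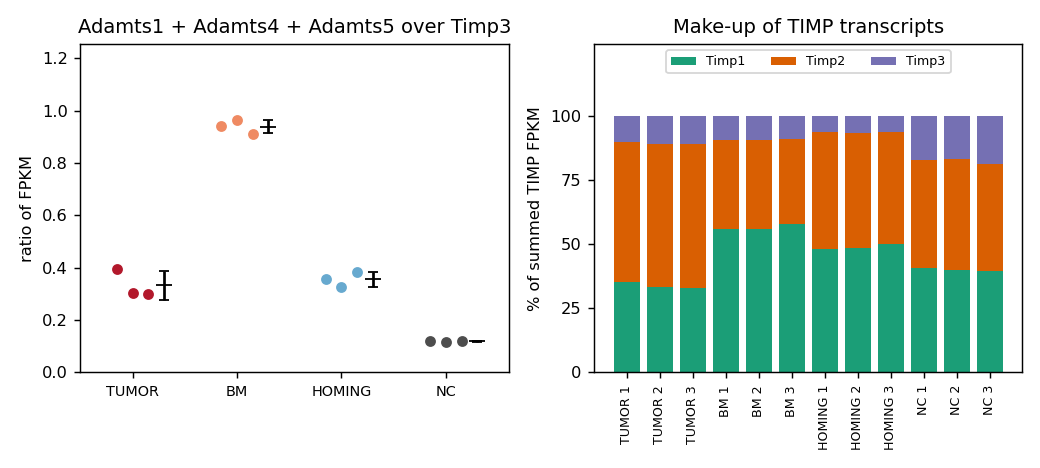
Left, the ratio of summed Adamts1, Adamts4 and Adamts5 FPKM to Timp3 FPKM in each library, with the mean and SD of 3 as black bars; right, the percentage of summed TIMP FPKM taken by each TIMP gene in each library. The ratio is 0.912 to 0.965 in BM and 0.116 to 0.121 in NC.

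Other ADAMTS protease genes were mostly at low levels. Of 16 listed, 14 were in the tables and 7 passed the filter. In BM over HOMING 3 of the 7 rose and 0 fell, beside 10.4% of all tested genes called, and in BM over NC 2 rose and 0 fell, beside 11.5%. In TUMOR over NC and in HOMING over NC 1 rose and 0 fell, beside 16.4% and 14.3%. The count in BM over NC was 1 without NC replicate 1 or NC replicate 2. Adamts7, whose product cuts cartilage oligomeric matrix protein, was the most abundant of them, at 4.63 ± 0.17 FPKM in TUMOR, 14.7 ± 0.392 in BM, 6.78 ± 0.111 in HOMING and 4.39 ± 0.481 in NC (SD, n = 3). It rose by log2 1.63 ± 0.07 in BM over NC and 1.12 ± 0.06 in BM over HOMING and fell by 1.66 ± 0.07 in TUMOR over BM (edgeR adjusted p 3.49e-09, 2.51e-08 and 1e-09). Adamts6 had 0.92 ± 0.0529 FPKM in TUMOR, 2.13 ± 0.2 in BM, 1.04 ± 0.0608 in HOMING and 1.06 ± 0.05 in NC, and was called higher in BM over HOMING (log2 1.06 ± 0.09) and lower in TUMOR over BM. Adamts14, which encodes a procollagen-trimming protease, had 2.59 ± 0.423 FPKM in TUMOR, 3.38 ± 0.0608 in BM, 1.503 ± 0.0404 in HOMING and 1.54 ± 0.489 in NC. Its call in BM over NC (log2 1.04 ± 0.18) ended without NC replicate 1 (0.88) or 2 (0.94), while that in BM over HOMING (log2 1.20 ± 0.18) held.

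Adamts9 had 1.42 ± 0.25 FPKM in TUMOR, 0.867 ± 0.00577 in BM, 1.22 ± 0.0651 in HOMING and 0.48 ± 0.0346 in NC, and rose in TUMOR over NC (log2 1.44 ± 0.12) and HOMING over NC (log2 1.24 ± 0.12). TUMOR over HOMING had 0 calls among the 7 in edgeR, DESeq2 and limma, beside 10.8% of all genes called in edgeR. Of the 7, 4 had an unadjusted p under 0.05 and 4 an adjusted p under 0.05, the latter beside 55% of all genes. In TUMOR over BM 0 rose and 2 fell, beside 14.2% of all genes called. Of the 7 ADAMTS-like genes, whose products lack the protease domain, 3 passed the filter. Adamtsl3, with 2.81 ± 0.868 FPKM in TUMOR, 1.02 ± 0.0603 in BM, 0.52 ± 0.0361 in HOMING and 0.93 ± 0.351 in NC, was the 1 member called, higher in TUMOR over NC, over HOMING and over BM (log2 1.51 ± 0.25, 2.42 ± 0.26 and 1.43 ± 0.25). In these 3 comparisons 1 of the 3 tested members rose and 0 fell, beside 16.4%, 10.8% and 14.2% of all genes called. In BM over NC, HOMING over NC and BM over HOMING 0 were called by edgeR, DESeq2 or limma, beside 11.5%, 14.3% and 10.4% of all genes in edgeR. There 1, 2 and 2 had an unadjusted p under 0.05. The same numbers had an adjusted p under 0.05, beside 66.6%, 70% and 58.1% of all genes. The count of 0 became 1 lower in HOMING over NC without NC replicate 1 and 1 higher in BM over HOMING without BM replicate 2 or HOMING replicate 3.

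**Figure D4:**
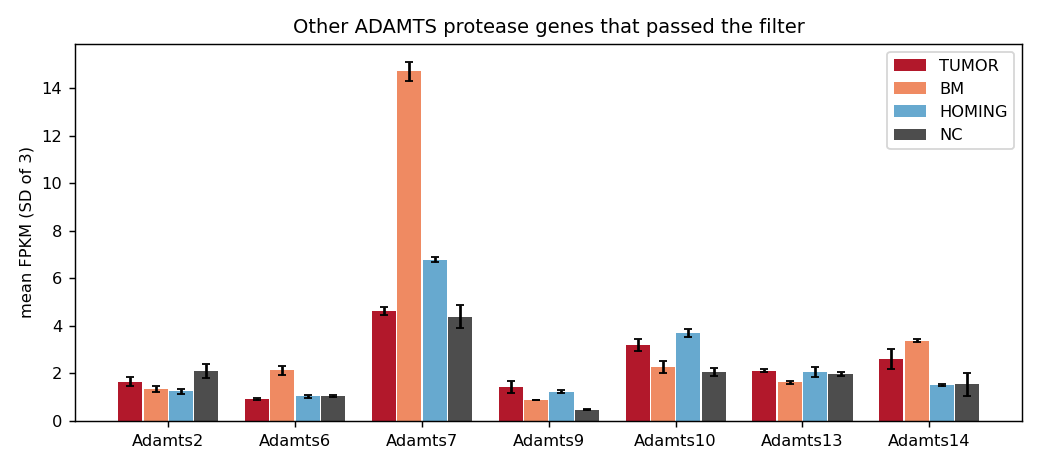
Mean FPKM with SD of 3 libraries (vertical axis) for the 7 other ADAMTS protease genes that passed the filter, in TUMOR, BM, HOMING and NC. Adamts7 reaches 14.7 FPKM in BM against 4.39 to 6.78 in the other groups.

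Among 6 other inhibitors and receptors that clear these proteins, 4 passed the filter, and 1 fell and 0 rose in each comparison with NC, beside 16.4% of all tested genes called in TUMOR over NC, 11.5% in BM over NC and 14.3% in HOMING over NC. Lrp1, the scavenger receptor that takes up ADAMTS proteases and TIMPs, had 61.7 ± 9.28 FPKM in TUMOR, 69.9 ± 2.72 in BM, 59.1 ± 2.34 in HOMING and 125 ± 4.76 in NC. It fell in TUMOR over NC (log2 -1.14 ± 0.09) and HOMING over NC (log2 -1.19 ± 0.09) and stood at -0.92 ± 0.09 in BM over NC, under the minimum. Reck, the membrane-anchored metalloproteinase inhibitor, had 1.44 ± 0.232 FPKM in TUMOR, 1.10 ± 0.115 in BM, 1.31 ± 0.0551 in HOMING and 2.08 ± 0.17 in NC. Its call in BM over NC lay at the threshold (log2 -1.0015 ± 0.12) and ended without BM replicate 2 (-0.95), NC replicate 1 (-0.9982) or NC replicate 2 (-0.97). In TUMOR over HOMING, BM over HOMING and TUMOR over BM 0 of the 4 were called by edgeR, DESeq2 or limma, beside 10.8%, 10.4% and 14.2% of all genes in edgeR. There 1, 1 and 3 had an unadjusted p under 0.05. The same numbers had an adjusted p under 0.05, beside 55%, 58.1% and 69.6% of all genes. Timp4, the remaining TIMP gene, had 4 counts over the TUMOR libraries, 9 over BM, 5 over HOMING and 10 over NC and did not pass the filter.

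Genes for matrix substrates moved in both directions. Of 14 listed, 8 passed the filter: 1 rose and 1 fell in TUMOR over NC, 2 and 0 in BM over NC, 2 and 2 in HOMING over NC, 1 and 2 in TUMOR over HOMING, 2 and 1 in BM over HOMING, and 0 and 1 in TUMOR over BM. The share of all tested genes called was 16.4%, 11.5%, 14.3%, 10.8%, 10.4% and 14.2% in the same order. The proteoglycan decorin gene Dcn was at 65.7 ± 11.5 FPKM in TUMOR, 605 ± 18.3 in BM, 207 ± 16.5 in HOMING and 96.1 ± 20.6 in NC. It rose by log2 2.57 ± 0.14 in BM over NC and 1.58 ± 0.14 in BM over HOMING and fell by 3.24 ± 0.15 in TUMOR over BM. Acan, the gene for aggrecan, was at 1.81 ± 0.386 FPKM in TUMOR, 1.33 ± 0.117 in BM, 1.85 ± 0.0451 in HOMING and 0.367 ± 0.271 in NC. Acan rose over NC in TUMOR (log2 2.16 ± 0.35), BM (log2 1.77 ± 0.35) and HOMING (log2 2.21 ± 0.35), and without NC replicate 3 these values were 2.99, 2.60 and 3.04. Vcan, the gene for versican, was not called in any of the 6 comparisons, with 21.3 ± 2.31 FPKM in TUMOR, 33.6 ± 1.67 in BM, 29.3 ± 1.52 in HOMING and 24.5 ± 1.5 in NC; it was named after its values were seen. Fbn1, the gene for the microfibril protein fibrillin, had 6.51 ± 0.321 FPKM in TUMOR, 9.53 ± 0.774 in BM, 5.25 ± 0.184 in HOMING and 13.1 ± 1.85 in NC, and fell in TUMOR over NC (log2 -1.14 ± 0.10) and HOMING over NC (log2 -1.44 ± 0.10). Col3a1, a fibrillar collagen gene, had 48.0 ± 6.12 FPKM in TUMOR, 40.4 ± 0.991 in BM, 18.5 ± 0.641 in HOMING and 35.7 ± 5.67 in NC, and was called higher in TUMOR over HOMING (log2 1.37 ± 0.11) and BM over HOMING (log2 1.16 ± 0.11). Its call in HOMING over NC (log2 -1.06 ± 0.11) ended without NC replicate 1 (-0.95). Thbs1, which encodes thrombospondin, rose in HOMING over NC (log2 1.27 ± 0.18) and had 132 ± 40.4 FPKM in TUMOR, 122 ± 5.8 in BM, 340 ± 25.8 in HOMING and 130 ± 17.7 in NC. It was called lower in TUMOR over HOMING (log2 -1.38 ± 0.18) and BM over HOMING (log2 -1.45 ± 0.18). HOMING also had the highest megakaryocyte and platelet marker sums, at 29.76 to 41.38 FPKM. The part of blood cells in Thbs1 was not tested.

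Of 4 propeptide convertases, which remove the propeptide that keeps ADAMTS proteases inactive, 3 passed the filter. Pcsk6 had 1.55 ± 0.384 FPKM in TUMOR, 0.49 ± 0.0656 in BM, 0.19 ± 0.02 in HOMING and 0.36 ± 0.0624 in NC. It passed the filter only through the 3 TUMOR libraries, 0 of the others having reached 1 FPKM, so that it had to differ there, and its levels are given as a description without a test. It was the 1 gene called on this list. In BM over NC and HOMING over NC 0 of the 3 were called by edgeR, DESeq2 or limma, beside 11.5% and 14.3% of all genes in edgeR. There 2 and 3 had an unadjusted p under 0.05. The same numbers had an adjusted p under 0.05, beside 66.6% and 70% of all genes. In HOMING over NC 1 was called lower without HOMING replicate 3 or NC replicate 1.

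Of 22 listed metalloproteinases of the MMP and ADAM families, 20 passed the filter, the most of any list. TIMPs block many of these enzymes but not every ADAM among them, so the counts are not counts of TIMP targets. In BM over NC 9 rose and 2 fell, beside 11.5% of all tested genes called, and in TUMOR over BM 1 rose and 8 fell, beside 14.2%. In HOMING over NC 7 rose and 0 fell, beside 14.3%, in TUMOR over HOMING 0 rose and 8 fell, beside 10.8%, and in BM over HOMING 3 rose and 5 fell, beside 10.4%. In TUMOR over NC 1 rose and 2 fell, beside 16.4%, and this total of 3 became 5 without NC replicate 1, 6 without TUMOR replicate 2, 5 without TUMOR replicate 3 and 2 without TUMOR replicate 1. Mmp2, counted among the rises in BM over NC and BM over HOMING, would not have passed the filter without its BM libraries, so nothing is read from its calls. Mmp3, which encodes stromelysin, had 20.0 ± 4.65 FPKM in TUMOR, 310.2 ± 9.88 in BM, 57.8 ± 7.41 in HOMING and 19.1 ± 2.52 in NC, and was called higher in BM over NC (log2 3.94 ± 0.16) and HOMING over NC (log2 1.48 ± 0.15). Mmp13, an interstitial collagenase, had 1.68 ± 0.104 FPKM in TUMOR, 33.5 ± 1.25 in BM, 36.7 ± 8.85 in HOMING and 10.2 ± 2.49 in NC. It fell by 2.73 ± 0.21 on the log2 scale in TUMOR over NC and rose by 1.63 ± 0.17 in BM over NC and 1.73 ± 0.17 in HOMING over NC. Adam17, the sheddase blocked by TIMP3, had 20.9 ± 3.34 FPKM in TUMOR, 19.1 ± 0.501 in BM, 15.3 ± 1.54 in HOMING and 8.18 ± 0.395 in NC, and rose in TUMOR over NC (log2 1.23 ± 0.10) and BM over NC (log2 1.14 ± 0.10); in HOMING over NC it stood at 0.79 ± 0.10. Mmp14, the membrane enzyme that works with TIMP2, was not called in any of the 6 comparisons, with means of 54.8 to 64.3 FPKM over the 4 groups and log2 differences of -0.24 to 0.02. Mmp8 and Adam8, which neutrophils also make, were at 29.8 ± 9.4 and 23.3 ± 7.51 FPKM in HOMING beside its neutrophil marker sum of 1698 to 2483 FPKM, against 0.01 ± 0.01 and 0.937 ± 0.553 FPKM in NC. Mmp9, a gelatinase of neutrophils and other cells, had 0.53 ± 0.0265 FPKM in TUMOR, 2.86 ± 0.254 in BM, 14.5 ± 4.71 in HOMING and 0.833 ± 0.403 in NC. Mmp12, the macrophage elastase, had 0.08 ± 0.0265 FPKM in TUMOR, 7.42 ± 0.243 in BM, 6.33 ± 2.03 in HOMING and 0.04 ± 0.01 in NC, beside macrophage marker sums of 13.65 to 14.54, 19.02 to 19.89, 143.6 to 242.1 and 5.54 to 7.32 FPKM in the same order. Of these sums, Cd68 made up 12.4 ± 0.115 FPKM in TUMOR and 7.44 ± 0.432 in BM. The other macrophage markers had lower means in TUMOR than in BM. Itgam, for example, had 0.02 ± 0.01 FPKM in TUMOR, 2.37 ± 0.0513 in BM, 39.9 ± 14.2 in HOMING and 0.01 ± 0.01 in NC. The part of blood cells in Mmp8, Adam8, Mmp9 and Mmp12 was not tested. Adam19 was called lower in TUMOR over NC (log2 -1.12 ± 0.24), a call that ended without NC replicate 3 (-0.69) or TUMOR replicate 1 (-0.93).

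By the root mean square difference of log2(FPKM + 1), centred on each gene's mean over the 12 libraries, the patterns closest to each gene were found among 10914 genes. Nfil3 (0.24) and H1f2 (0.242) came closest to Adamts1, whose own spread on this scale was 0.789. Sppl2b (0.146) and Mcf2l (0.154) came closest to Adamts4 with a spread of 0.502, and Pmaip1 (0.113) and Snx16 (0.12) to Adamts5 with 0.354. Fgf7 (0.0782) and Pak3 (0.101) came closest to Timp1 with 0.432, Gprc5a (0.0799) and Galnt18 (0.0918) to Timp2 with 0.355, and Mtss2 (0.135) and Phyhd1 (0.168) to Timp3 with 0.768. None of the 12 nearest genes was itself a member of the 6. Nfil3 had 17.4 ± 0.82 FPKM in TUMOR, 46.5 ± 0.7 in BM, 15.2 ± 0.722 in HOMING and 22.7 ± 0.464 in NC, highest in BM and lowest in HOMING as Adamts1 was. Mtss2 had 7.11 ± 0.407 FPKM in TUMOR, 7.66 ± 0.257 in BM, 6.33 ± 0.425 in HOMING and 23.4 ± 2.01 in NC, highest in NC as Timp3 was.

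Some of the 6 genes share their place in the genome with another gene, and no source used here says whether reads were counted by strand. Timp3 and Timp1 overlap the synapsin genes Syn3 and Syn1 on the opposite strand. Syn3, which shares 21.3% of the exon bases of Timp3, was at 0.243 ± 0.0153 FPKM in TUMOR, 0.133 ± 0.0208 in BM, 0.187 ± 0.0153 in HOMING and 0.267 ± 0.0404 in NC, and Syn1 shares 0% with Timp1.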

How the data were processed

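RNA was taken with Trizol from sorted, frozen cells and made into libraries with the Illumina TruSeq RNA kit, per the labels' protocols. Reads were mapped with Bowtie 0.12.2 and the build was mm8, per the submitters' processing notes; no source used here names the counting program. The authors deposited 1 table per library, in which expected counts are their estimated reads per transcript, not normalized. The deposited FPKM are scaled to transcript length and library size and have 2 decimals.

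Both were summed per gene, with unlisted transcripts at 0. Of 19679 Entrez numbers 19629 matched a RefSeq symbol, used for names alone. Rounded expected counts of 12314 genes that reached 1 FPKM in 3 or more libraries were fitted in edgeR 4.0.16 (R 4.3.3) with TMM scaling and 1 model of the 4 groups, without a replicate block. Two-sided quasi-likelihood F-tests were adjusted by Benjamini and Hochberg over all tested genes, and calls needed an adjusted p below 0.05 together with a 2-fold difference. Groups came from the sample titles. The 6 genes, the lists, the marker genes and the rule for naming genes were chosen with earlier results of these data known. All 6 genes are named, with up to 4 called members of a list in each comparison by smallest adjusted p, the 2 nearest patterns per gene and Reck, Lrp1, Mmp14, Timp4 and Adam17. The steps were run on simulated data, for each pair of groups alone and with 1 fixed spread for all genes. The simulation held no outlying replicates, so it does not show how the steps perform on these libraries. DESeq2 1.42.0, limma 3.58.1 on log2(FPKM + 1) or log2(FPKM + 0.1) and other settings were run as alternatives. Tables used Python 3.11.15 and pandas 2.3.3, and plots matplotlib 3.10.9. Depth was 43232145 to 46166519 expected counts per library. Coordinates are given for RefSeq promoters alone.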

Additional observations from a re-analysis of the deposited data

How the results depend on the processing

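The number of the 6 genes called stayed within 1.5 times the reported count in 134 combinations of comparison and setting and moved beyond it in 10. With limma and a pseudocount of 1 FPKM it was 1 in BM over HOMING and 1 in TUMOR over BM. With no minimum fold change it was 6 in TUMOR over NC, 5 in HOMING over NC, 4 in TUMOR over HOMING, 5 in BM over HOMING and 5 in TUMOR over BM. Leaving out 1 library gave 1 to 2 in HOMING over NC and 1 to 3 in TUMOR over BM. With NC 3, HOMING 3 and TUMOR 1 left out together, a setting chosen after seeing the data, 1 gene was called in TUMOR over BM.

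Calls of single genes ended for Timp2 in BM over NC (-0.98 with those 3 libraries left out, -0.97 with limma at either pseudocount) and Adamts5 in TUMOR over BM (-0.92 with those 3 left out, -0.88 with limma at 1 FPKM). Adamts4 lost its calls in TUMOR over NC (0.92) and BM over HOMING (0.81) with limma at 1 FPKM. Timp1 in TUMOR over BM was called at -1.04 with no filter. The sign turned where the difference was near 0. Timp2 in TUMOR over HOMING stood at 0.0473 with those 3 left out, 0.0038 with the compared groups alone, 0.0055 with library size alone, 0.0235 and 0.0051 without HOMING replicate 1 or 2, and between -0.0605 and 0.0838 over the fits without 1 library, the highest without TUMOR replicate 1. Timp3 in TUMOR over BM stood at 0.0776 with those 3 left out, 0.0091 with library size alone, and between -0.0958 and 0.0776 over the fits without 1 library, the highest without TUMOR replicate 1. Counts of calls in the lists moved by over 1.5 times in 93 combinations and stayed within that in 771.

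Over all genes, no filter gave 3420 calls in TUMOR over NC, 2537 in BM over NC, 3302 in HOMING over NC, 2702 in TUMOR over HOMING, 2581 in BM over HOMING and 3162 in TUMOR over BM. No minimum fold change gave 9068, 8198, 8617, 6776, 7158 and 8576 in that order. Limma with 1 FPKM gave 1301 in TUMOR over NC, 626 in BM over NC and 930 in TUMOR over BM. Library size alone moved the median log2 change of all genes to 0.13 in TUMOR over NC, 0.10 in BM over NC and 0.12 in HOMING over NC, and called 1464 genes higher and 638 lower in TUMOR over NC, against 1200 higher and 819 lower with TMM. The causes were not tested.

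With the replicate number as a block, 3, 4, 1, 0, 2 and 2 of the 6 genes were called in the same order, and 2018, 1421, 1770, 1325, 1285 and 1750 genes in all. Same-numbered libraries of 2 groups deviated together with r of -0.135 to 0.178, and a library correlated best with its own number in 12 of 36 cases, so the numbers were not taken to pair the libraries. Adamts4 had the fewest counts of the 6 genes, so depth limits its precision most.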
